A study of Mus musculus with 46 samples.

Results

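The N-methyl-D-aspartate (NMDA) receptor genes of AgRP and POMC neurons were followed through feeding, fasting and leptin treatment. The members are the 7 mouse genes that encode subunits of this receptor, Grin1, Grin2a, Grin2b, Grin2c, Grin2d, Grin3a and Grin3b. They were taken by name from a count table of 31854 genes. Open chromatin was taken as every ATAC peak within 50 kb of the annotated start site of a member. That rule gave 55 of 123721 peaks in AgRP nuclei of the 3 states and 32 of 67472 peaks in sorted nuclei.

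The NMDA receptor is a channel opened by glutamate that passes calcium. GRIN1 is present in every such receptor and binds the co-agonist glycine or D-serine, the GRIN2 subunits bind glutamate and set the kinetics and magnesium block of the channel, and the GRIN3 subunits bind glycine and lower calcium entry. In AgRP neurons, which drive feeding, NMDA receptors serve the excitatory input and the dendritic spines whose number is known to rise with fasting, whereas POMC neurons curb feeding.

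Libraries came from the arcuate nucleus of male mice on a C57BL/6 J background, which in the AgRP line were aged 6 to 11 weeks. The TRAP and ATAC mice carried the NuTRAP cassette, in which Cre removes a stop in front of a GFP-tagged L10a ribosomal protein and an mCherry-tagged RANGAP protein of the nuclear envelope, and Cre was driven from the Agrp locus (AgRP-IRES-Cre) or the Pomc locus (POMC-IRES-Cre). Ribosome-bound RNA was pulled down through the GFP tag (TRAP), with 4 arcuate nuclei pooled per sample in the protocol given for the AgRP line, and tagged AgRP nuclei were sorted for ATAC-seq. In the AgRP line, fed mice had food at all times and received vehicle, and fasted mice were without food for 18 to 20 h and received vehicle. Leptin-treated mice of that line were fasted and received 5 mg/kg leptin. Each injection was 3 h before tissue was taken. The methods give these times and this dose for the AgRP line, and for the POMC line only the same 3 states are named. TRAP libraries of AgRP neurons numbered 3 (fed), 4 (fasted) and 4 (leptin-treated), those of POMC neurons 2 per state, and ATAC libraries of AgRP nuclei 2 per state. A second ATAC set compared 2 libraries of AgRP(+) with 2 of AgRP(-) nuclei, the negative nuclei being all other cells of the same pools. Cre marks every cell that has ever used the driving locus, so the tag is a record of lineage as well as of current identity. The IRF-3 CUT&RUN library used at the end came from IRF3-2D mice, which express a constitutively active IRF3 in AgRP neurons.

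TRAP libraries held 25.6 to 54.5 M counted reads and ATAC libraries 8.26 to 17.2 M reads in peaks. The summed level of 5 AgRP neuron markers was 1030 to 5710 CPM (reads of a gene per 1 M counted reads, TMM-scaled) in AgRP libraries and 47.7 to 127 CPM in POMC libraries, whereas 4 POMC neuron markers summed to 58.1 to 99.5 and 1590 to 2970 CPM, so each line held its labelled neuron. The AgRP libraries numbered 4 and the POMC libraries numbered 2 stood apart from the rest in every state. Against the other numbers of their line, 501 of 13435 genes (3.73%) were over 2-fold higher in AgRP number 4 and 542 (4.03%) in POMC number 2, and 330 of these were the same genes. The 6 astrocyte markers summed to 868 to 916 CPM in AgRP number 4 against 417 to 649 CPM in the other AgRP libraries, and to 1040 to 1170 CPM in POMC number 2 against 655 to 760 CPM in POMC number 1. The 6 oligodendrocyte markers summed to 753 to 833 against 482 to 749 CPM and to 786 to 998 against 454 to 552 CPM in the same order, and no marker of either list was at 0. Markers of oligodendrocyte precursors (77.6 to 81.3 against 43.2 to 69.4 CPM in AgRP libraries) and of tanycytes and ependymal cells (101 to 132 against 63.3 to 90.7 CPM) were also higher in number 4. So were GABAergic neuron markers, at 1780 to 1820 against 1440 to 1700 CPM, and in POMC number 2 at 1720 to 2080 against 1020 to 1530 CPM. Microglia markers overlapped in AgRP libraries (36.0 to 39.8 against 15.7 to 38.2 CPM). Single markers differed within a list. In AgRP number 4, Aqp4 was higher by 1.5 on the log2 scale, Gfap by 0.03, and Aldh1l1 was at -0.13. The part of all these markers in the subunit levels was not tested, and values are given below with and without these libraries. In pulled-down bulk RNA, fewer cells of a type and less RNA per cell cannot be told apart.

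Grin1, the obligatory subunit, lies on chr2:25291181-25319187 (GRCm38, minus strand) and was measured at 338, 380 and 396 CPM in the fed, at 372, 435, 424 and 365 CPM in the fasted and at 355, 407, 378 and 413 CPM in the leptin-treated AgRP libraries. The states overlapped throughout, and the coefficient of variation over all 11 AgRP libraries was 7.78%, the lowest of the 7 members. In POMC libraries Grin1 was at 445 and 475 CPM (fed), 468 and 468 CPM (fasted) and 463 and 465 CPM (leptin-treated), with every POMC library above every AgRP library. Grin1os is annotated across Grin1, and Gm45441 and Kdelr1 across Grin2d, and since the library kit does not mark strand, reads of such partners cannot be told apart from those of the subunit.

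Among the glutamate-binding subunits, Grin2b (chr6:135713233-136173511, minus strand) was the most abundant and the least even. It was measured at 316, 233 and 838 CPM in the fed AgRP libraries, at 201, 207, 161 and 1040 CPM in the fasted and at 261, 205, 188 and 868 CPM in the leptin-treated ones. The high value of each state was the library numbered 4. POMC libraries split in the same way, with 318, 321 and 286 CPM in number 1 and 1100, 1160 and 1210 CPM in number 2. The difference of number 4 from the other AgRP libraries was 2.03 on the log2 scale and that of POMC number 2 from number 1 was 1.91, differences that 0.313% and 0.32% of the 13435 genes exceeded. Grin2b therefore had a coefficient of variation of 80.5% over AgRP and 63.7% over POMC libraries.

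Grin2a (chr16:9567898-9995560, minus strand), the subunit that replaces GRIN2B at many synapses as they mature, was at 27.8, 28.0 and 44.8 CPM in fed, at 20.8, 21.4, 19.2 and 36.8 CPM in fasted and at 28.5, 27.1, 28.7 and 45.7 CPM in leptin-treated AgRP libraries. Number 4 was again the highest of each state, by 0.74 on the log2 scale. Without number 4, the 3 fasted libraries lay below every fed and leptin-treated library. In POMC libraries Grin2a was at 31.6, 26.0 and 25.1 CPM in number 1 and at 46.2, 48.2 and 50.5 CPM in number 2, in the order fed, fasted and leptin-treated.

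Grin2d (chr7:45831883-45878378, minus strand), the slowly deactivating subunit, was at 39.6, 38.7 and 46.0 CPM in fed, 31.5, 34.9, 32.2 and 31.5 CPM in fasted and 28.2, 34.3, 29.8 and 36.8 CPM in leptin-treated AgRP libraries. Every fed library was above every fasted and every leptin-treated library, and number 4 differed from the rest by only 0.14 on the log2 scale. In POMC libraries it was at 39.2 and 49.0 CPM (fed), 42.3 and 59.0 CPM (fasted) and 42.4 and 47.3 CPM (leptin-treated). Grin2c (chr11:115249169-115267243, minus strand), best known from cerebellar granule cells, was low, at 6.26 to 7.40 CPM in fed, 7.25 to 10.1 CPM in fasted and 6.79 to 11.7 CPM in leptin-treated AgRP libraries and 6.34 to 14.3 CPM in POMC libraries.

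Of the glycine-binding GRIN3 subunits, Grin3a (chr4:49661611-49845744, minus strand) was at 136, 108 and 188 CPM in fed, 96.6, 106, 80.8 and 158 CPM in fasted and 106, 105, 80.7 and 170 CPM in leptin-treated AgRP libraries. Number 4 was the highest of each state, by 0.73 on the log2 scale, and the states overlapped. POMC libraries held 159, 117 and 122 CPM in number 1 and 217, 245 and 240 CPM in number 2. Grin3b (chr10:79970715-79977190, plus strand) was nearly absent, with 22 to 44 reads (0.618 to 0.968 CPM) in AgRP and 15 to 48 reads (0.434 to 0.981 CPM) in POMC libraries. It did not pass the filter of a mean above 1 CPM and was not tested, so 6 of the 7 members entered the tests.

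Levels of different genes can be compared only per length. As CPM per kb of counted length, the mean order in fed AgRP libraries was Grin2b 61.5 ± 43.7, Grin1 30.5 ± 2.47, Grin3a 17 ± 4.78, Grin2d 7.38 ± 0.705, Grin2a 6.44 ± 1.88, Grin2c 1.40 ± 0.117 and Grin3b 0.282 ± 0.0113 (SD, n = 3). Grin2b overlapped Grin1, and Grin2d overlapped Grin2a, whereas the other neighbours in this order did not overlap. The same order of means held in fasted AgRP libraries. Without number 4, however, Grin2b was at 25.2 CPM per kb fasted and 29.0 after leptin, below the 33.7 and 31.2 CPM per kb of Grin1, and at 36.5 against 29.4 CPM per kb fed. In leptin-treated AgRP libraries Grin2b was at 50.6, Grin1 at 31.8, Grin3a at 13.6, Grin2a at 6.24 and Grin2d at 5.75 CPM per kb. POMC libraries kept the order of the fed AgRP libraries in all 3 states, with Grin2b at 94.6 to 99.7 and Grin1 at 37.8 to 38.4 CPM per kb. In POMC number 1 alone Grin2b was at 42.3, 42.7 and 38.0 CPM per kb in the order fed, fasted and leptin-treated, against 36.5, 38.4 and 38.0 for Grin1. The deposited table counts 7512 bases of Grin2b and 12184 of Grin1, where GENCODE exons span 24842 and 9700 bases, and per kb of GENCODE exon Grin1 (38.3 CPM per kb) was above Grin2b (18.6 CPM per kb) in fed AgRP libraries. The order of the pair thus turned with the length used. So did others, since 5207 bases of Grin2a are counted where its GENCODE exons span 17933. Per kb of GENCODE exon, Grin2d was above Grin2a in AgRP libraries fed (6.22 and 1.87 CPM per kb) and after leptin (4.85 and 1.81). Grin2a was then below Grin2c in fasted AgRP libraries (1.37 and 1.77 CPM per kb).

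**Figure D1:**
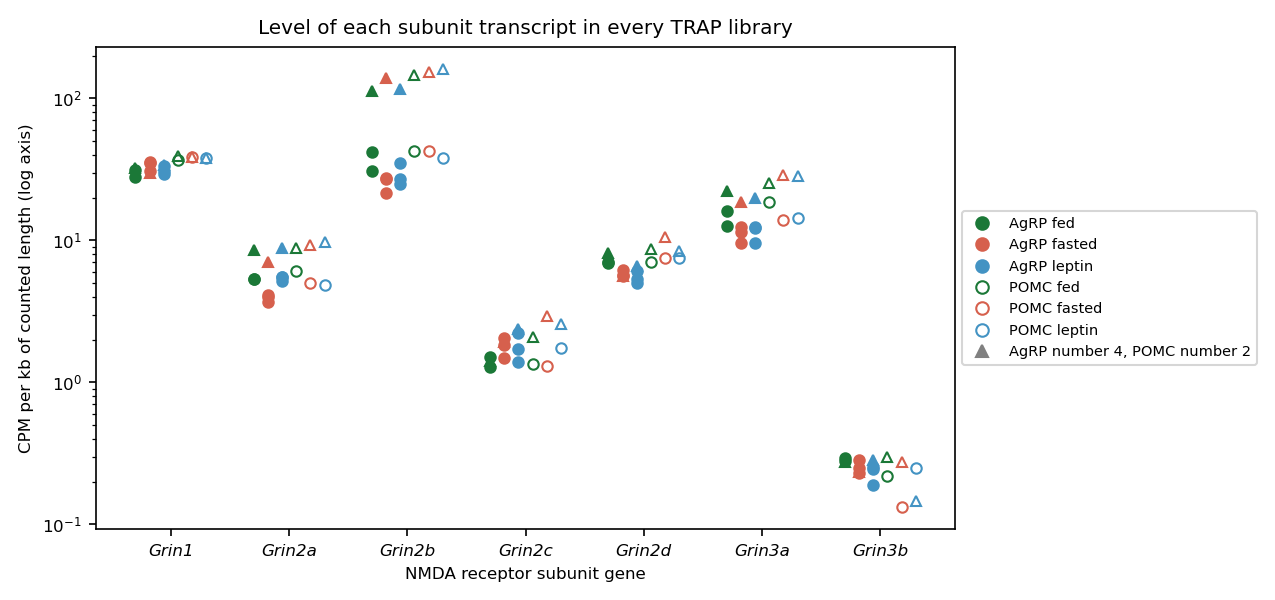
Level of each NMDA receptor subunit transcript (x axis) as CPM per kb of counted length (y axis, log axis) in each TRAP library. Filled symbols are AgRP and open symbols POMC libraries, coloured by state, and triangles are AgRP number 4 and POMC number 2. Grin2b ranges from 21.4 to 161 CPM per kb with the triangles on top, while Grin1 stays between 27.7 and 39.0 CPM per kb.

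Fasting was compared with feeding in AgRP neurons by edgeR's quasi-likelihood test, with a call defined as a Benjamini-Hochberg false discovery rate (FDR) under 0.05 and a change of over 0.5 on the log2 scale in either direction. Of the 13401 genes tested, 3.89% were called and 5.38% had an FDR under 0.05 at any fold change. None of the 6 tested subunits was called, by edgeR or by DESeq2. An unadjusted p under 0.05 was reached by 1, Grin2d, and by 2584 of the 13401 genes. Grin2d was 41.4 ± 3.96 CPM fed (SD, n = 3) and 32.5 ± 1.61 CPM fasted (n = 4), which the fit put at -0.34 ± 0.11 on the log2 scale (SE, FDR = 0.123). The log2 fold changes of the others were -0.43 ± 0.29 for Grin2a (FDR = 0.465), -0.37 ± 0.30 for Grin3a (FDR = 0.566), -0.17 ± 0.79 for Grin2b (FDR = 0.953), 0.11 ± 0.11 for Grin1 (FDR = 0.647) and 0.39 ± 0.19 for Grin2c (FDR = 0.311). The wide errors of Grin2a, Grin2b and Grin3a carry the spread of the libraries numbered 4.

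Libraries of the same number deviated together in AgRP neurons (correlations of 0.536 to 0.814), so the replicate number was also fitted as a block. Some libraries of unlike number did so as well, with correlations of up to 0.642. With the block, 3 subunits had an FDR under 0.05 at a fold change below the limit, Grin3a at -0.37 ± 0.07 (FDR = 0.00209), Grin2a at -0.39 ± 0.07 (FDR = 0.00289) and Grin2d at -0.36 ± 0.07 (FDR = 0.00443), each lower in 3 of 3 same-numbered pairs. The pairs gave log2 differences of -0.42, -0.55 and -0.28 for Grin2a, -0.33, -0.27 and -0.55 for Grin2d and -0.50, -0.42 and -0.26 for Grin3a in numbers 1, 3 and 4. Under the block 24.5% of all genes had an FDR under 0.05, and 6.94% were also past the fold limit, so 3 of 6 subunits are to be read against the former share. Grin2b was at -0.26 ± 0.14 (FDR = 0.201), since numbers 1 and 3 were lower by 0.65 and 0.53 on the log2 scale and number 4 was higher by 0.31. Without number 4 and with the block, Grin2b was called at -0.55 ± 0.08 (FDR = 0.000212), the only call of a subunit between states in AgRP neurons under the settings tried. That fit called 8.75% of all genes, with 4.17% of all genes called in this direction. Without number 4 and with no block its log2 fold change was -0.54 ± 0.17 (FDR = 0.0914), while Grin2a was at -0.46 ± 0.08 (FDR = 0.0137).

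**Figure D2:**
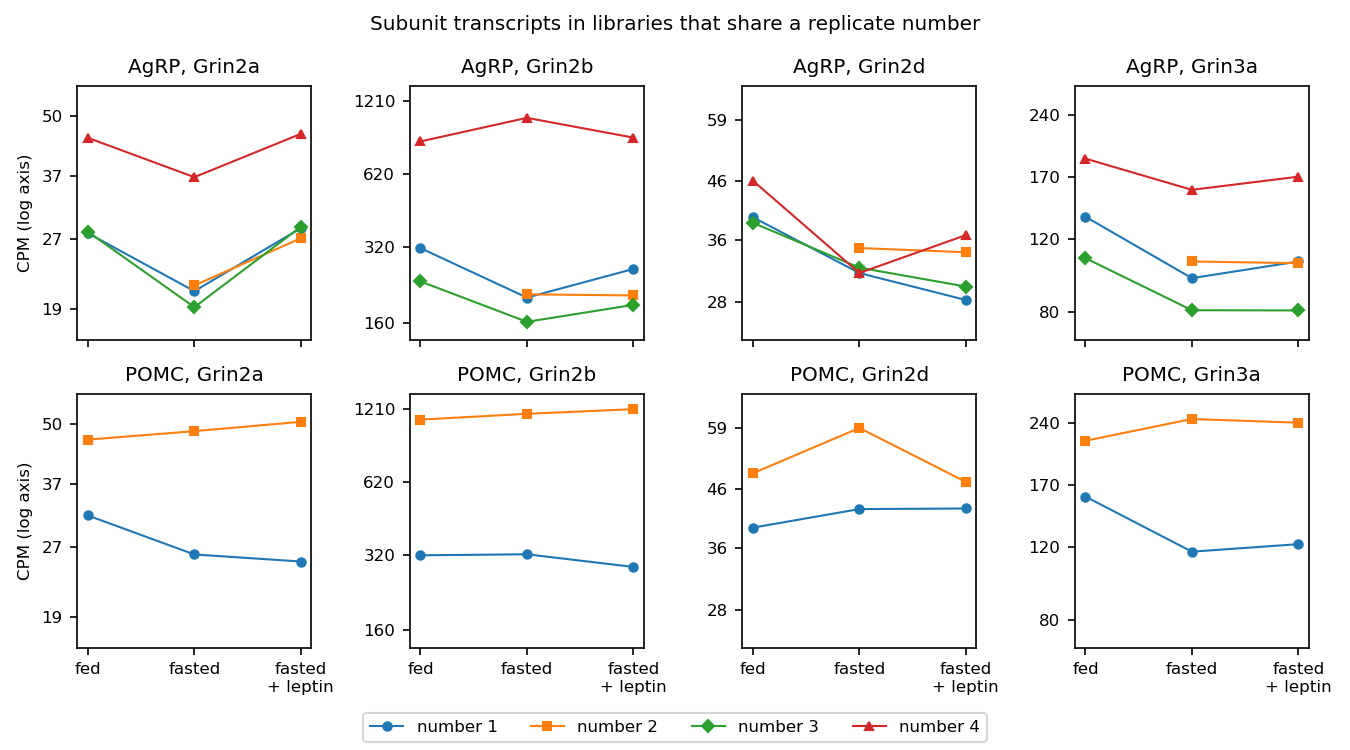
CPM (y axis, log axis) of Grin2a, Grin2b, Grin2d and Grin3a in fed, fasted and leptin-treated libraries (x axis), AgRP neurons above and POMC neurons below, with lines joining libraries of the same replicate number. In AgRP neurons the lines of Grin2a drop from fed to fasted and return with leptin, from 28.0 to 19.2 to 28.7 CPM in number 3, while the line of number 4 lies above the others for Grin2a, Grin2b and Grin3a.

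Leptin treatment was compared with fasting alone in the same fit, where 1.83% of genes were called and 2.3% had an FDR under 0.05. No subunit was called by edgeR or DESeq2, and none had an unadjusted p under 0.05, beside 1224 of the 13401 genes. Grin2a was at 32.5 ± 8.82 CPM after leptin and 24.6 ± 8.24 CPM in fasting (SD, n = 4 each), and the fitted log2 difference was 0.40 ± 0.27 (FDR = 0.909). It was higher after leptin in 4 of 4 same-numbered pairs, by 0.45, 0.34, 0.58 and 0.31 on the log2 scale. Under the block the estimate was 0.42 ± 0.07 (FDR = 0.00162), where 7.83% of all genes had an FDR under 0.05, and without number 4 it was 0.45 ± 0.08 (FDR = 0.0121). The other 5 subunits had log2 fold changes from -0.09 for Grin2b to 0.08 for Grin2c, with FDR of 0.698 to 0.942 under the block. For Grin2d and Grin3a, the leptin-treated libraries differed from the fasted ones by -0.01 ± 0.11 and 0.06 ± 0.28, within the spread between libraries.

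Leptin-treated against fed libraries gave 5.48% of genes called, 8.89% with an FDR under 0.05, and again 0 subunits by either tool. An unadjusted p under 0.05 was reached by Grin2d and Grin2c, and by 3094 of the 13401 genes. Grin2d was at 32.3 ± 3.98 CPM against 41.4 ± 3.96 CPM, a fitted difference of -0.35 ± 0.11 on the log2 scale (FDR = 0.0889), and -0.38 ± 0.07 with the block (FDR = 0.0026). By DESeq2 Grin2d was at -0.36 ± 0.12 (FDR = 0.0399), short of the fold limit alone. Grin3a was at -0.31 ± 0.30 (FDR = 0.625), while it was -0.32 ± 0.07 with the block (FDR = 0.00413). Grin2c was at 9.42 ± 2.24 CPM against 6.87 ± 0.571 CPM, or 0.47 ± 0.19 on the log2 scale (FDR = 0.174), and was higher in 3 of 3 pairs by 0.42 to 0.75. Grin2a was level with the fed state, with a log2 difference of 0.03 in each of the 3 pairs and a block estimate of 0.03 ± 0.07 (FDR = 0.803). Under the block 30.0% of all genes had an FDR under 0.05 in this comparison. The 3 comparisons share libraries, so the fasted values of Grin2a enter its lower value in fasting and its higher value after leptin alike.

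**Figure D3:**
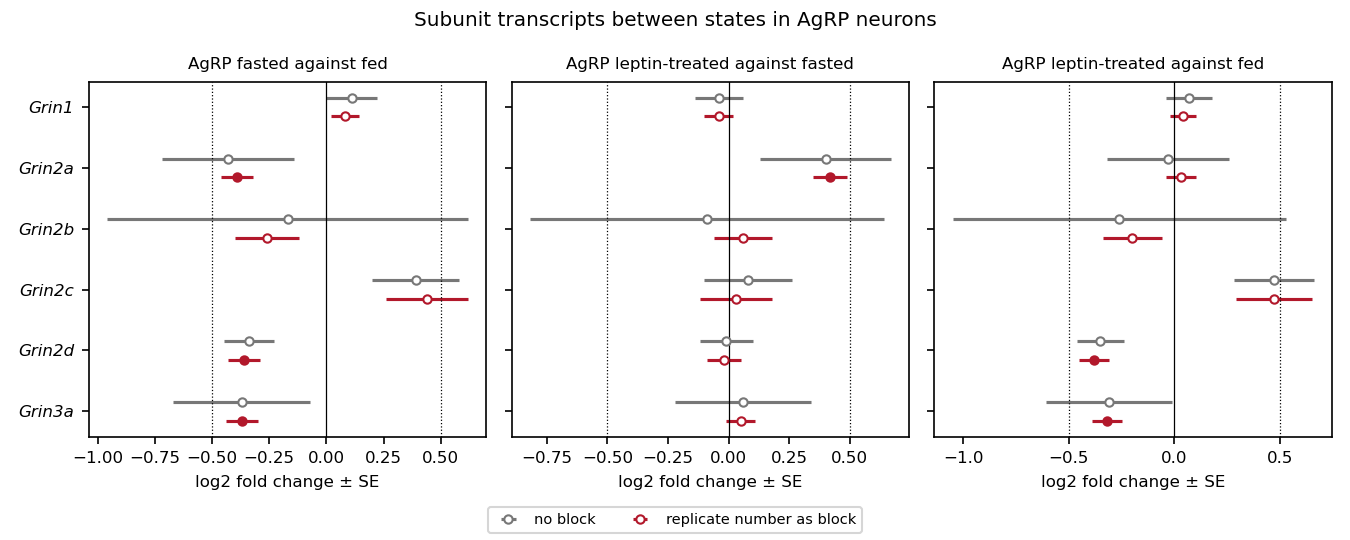
Log2 fold change ± SE (x axis) of the 6 tested subunits (y axis) in AgRP neurons for the 3 comparisons of states, with no block (grey) and with the replicate number as a block (red). Filled symbols have an FDR under 0.05 and dotted lines mark the fold limit of 0.5. Grin2a, Grin2d and Grin3a are filled under the block for fasting, Grin2a alone for leptin against fasting, and no filled symbol lies past the limit.

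The balance of Grin2a and Grin2b was read as the log2 ratio of their CPM per kb. It was -2.98, -2.53 and -3.70 in fed, -2.74, -2.74, -2.54 and -4.29 in fasted and -2.67, -2.39, -2.18 and -3.72 in leptin-treated AgRP libraries. Grin2b was the higher of the pair in every library, most of all in number 4. The group means were -3.07 ± 0.59 (SD, n = 3), -3.08 ± 0.81 (n = 4) and -2.74 ± 0.68 (n = 4). They differed by -0.01 for fasting (exact permutation test, two-sided, p = 0.971, adjusted p = 0.971), by 0.34 for leptin against fasting (exact p = 0.486, adjusted p = 0.771) and by 0.33 for leptin against fed (exact p = 0.514, adjusted p = 0.771), where the smallest p the design allows is 0.0286. In same-numbered pairs the ratio was higher after leptin than in fasting in 4 of 4, by 0.34 ± 0.20 (SD), and the exact sign-flip test gave p = 0.125, the smallest that 4 pairs allow.

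In POMC neurons the same 3 comparisons gave no called gene among 13412 (0.0% in each), with 282, 151 and 282 genes at an unadjusted p under 0.05 and 3, 10 and 7 genes called by DESeq2. The block gave 0.0224%, 0.0596% and 0.328% of genes called. No subunit was called by edgeR, with or without the block, or by DESeq2, and none had an unadjusted p under 0.05. The estimates with the largest size for fasting were 0.30 ± 0.44 for Grin2c and 0.20 ± 0.20 for Grin2d, and that for Grin2b was 0.05 ± 0.96. Grin2d was higher in fasting in both same-numbered POMC pairs, by 0.11 and 0.27. With the block, fasting estimates were -0.11 ± 0.11 for Grin2a (FDR = 0.689), 0.04 ± 0.08 for Grin2b (FDR = 0.861) and -0.13 ± 0.13 for Grin3a (FDR = 0.652).

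The lines were compared within each state in a fit over all 17 libraries. In the fed state 3.21% of 13435 genes were called (1.7% higher and 1.51% lower in AgRP neurons) and no subunit was, by edgeR or DESeq2. Grin1 alone of the subunits had an unadjusted p under 0.05, beside 1799 of the 13435 genes. Grin1 was at 371 ± 30.1 CPM in AgRP (SD, n = 3) and 460 ± 21.4 CPM in POMC neurons (n = 2), lower in AgRP neurons at -0.31 ± 0.11 on the log2 scale (FDR = 0.194). In the fasted state 13.3% of genes were called, of which those lower in AgRP neurons made up 5.33% of all genes, and Grin2d was the only subunit among them. Fasted Grin2d was 32.5 ± 1.61 CPM in AgRP against 50.7 ± 11.8 CPM in POMC neurons, with no overlap of libraries, and the log2 difference was -0.64 ± 0.14 (FDR = 0.00732). This call rests in part on the POMC fasted library number 2, without which the value was -0.40 and no subunit was called. After leptin, where 11.1% of genes were called, Grin2d was at -0.47 ± 0.14 (FDR = 0.0402), short of the fold limit. Grin1 had log2 fold changes of -0.23 ± 0.11 fasted (FDR = 0.15) and -0.26 ± 0.11 after leptin (FDR = 0.119), lower in AgRP neurons in all 3 states by less than the limit.

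Grin2b, Grin2a and Grin3a had log2 fold changes of AgRP against POMC neurons that were not called, at -0.62 ± 0.97, -0.21 ± 0.38 and -0.38 ± 0.39 in the fed and -0.87 ± 0.91, -0.60 ± 0.35 and -0.72 ± 0.37 in the fasted state. The sign of Grin2b turned without POMC number 2 of the state, to 0.54 fed and 0.32 fasted. Without AgRP number 4 and POMC number 2, the fasted log2 fold changes were -0.78 for Grin2b, -0.37 for Grin2a and -0.39 for Grin2d. Those values compare 3 AgRP libraries with 1 POMC library, so only their sizes are given.

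Whether fasting moved a subunit differently in the 2 lines was tested as an interaction. It was called for 0.164% of genes and for no subunit by edgeR or DESeq2. Grin2d had an unadjusted p under 0.05, beside 1204 of 13435 genes. For Grin2d the AgRP minus POMC difference of the log2 fold changes was -0.55 ± 0.21 (FDR = 0.422). With the replicate block it was -0.57 ± 0.12 (FDR = 0.0102) and called, where 6.22% of all genes were called, and 1.89% in this direction. All 3 AgRP pairs were lower in fasting and both POMC pairs were higher. Without AgRP number 4 and POMC number 2 the difference was -0.38 (FDR = 0.409). For the leptin effect 0.0819% of genes and no subunit was called by edgeR or DESeq2. No subunit had an unadjusted p under 0.05, beside 389 of 13435 genes. The block gave 0.40 ± 0.13 for Grin2a (FDR = 0.236), with 0.759% of all genes called.

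Across the 11 AgRP libraries, the genes whose log2 CPM followed each subunit most closely were named by Pearson's r, as a description that includes the libraries numbered 4. Grin2b went with Slc4a8 (r = 0.999), a sodium-driven chloride and bicarbonate exchanger, and with Kcnh7 (r = 0.997), an ERG-type potassium channel, and r was 0.99 and 0.98 over the 8 libraries without number 4. Grin2a went with Kctd16 (0.983, and 0.948 without number 4), an auxiliary subunit of GABA-B receptors, and with Mppe1 (0.977 and 0.994). Grin3a went with the potassium channel gene Kcna4 (0.987 and 0.945) and the netrin receptor gene Dcc (0.987 and 0.956). Grin1 went with Brsk2 (0.934 and 0.938), a kinase of neuronal polarity, and Arhgap44 (0.925 and 0.964). Grin2d went with Cpne5 (0.969 and 0.953) and the phosphatase gene Cdc25b (0.954 and 0.982), and Grin2c with Fgfr3 (0.894 and 0.895), a growth factor receptor that astrocytes express strongly, and Wiz (0.888 and 0.792). All points share the depth and composition of their library.

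Receptor partners were read from 4 lists with 54 genes in all, of which 48 were tested. The lists hold 16 scaffold genes of the postsynaptic density, 12 auxiliary and trafficking genes, 9 genes of glycine and D-serine handling and 17 kinases, phosphatases and effectors. In the 3 comparisons of states in AgRP neurons 0 of 48 were called by edgeR or DESeq2 and 0 had an FDR under 0.05, and the median log2 fold changes of 0.01, -0.04 and -0.05 stood beside 0.02, -0.01 and 0.01 for all genes. With the replicate block, 9 of 48 had an FDR under 0.05 for fasting, beside 24.5% of all genes. Named after their values were seen, these were lower for the scaffold gene Dlg1 (-0.22), the trafficking genes Lin7a (-0.40), Lin7b (-0.50) and Akap5 (-0.33), the kinase gene Camk2a (-0.32) and the calcineurin gene Ppp3ca (-0.19). They were higher for Gldc (0.50), which breaks down glycine, Prkca (0.29) and Camk2d (0.15). Camk2a, whose kinase binds GRIN2B after calcium entry, had an FDR of 0.00939. After leptin against fed, Lin7b, a partner of the scaffold that carries GRIN2B along dendrites, was called with the block (-0.58 ± 0.09, FDR = 0.000872), at 9.22 ± 1.96 CPM against 12.8 ± 2.31 CPM. This fit called 8.57% of all genes, 3.23% in that direction.

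Between the lines in the fed state, 2 of 48 partners were called, a share near the 3.21% of all genes. Ptpn5, the phosphatase STEP that removes phosphate from GRIN2B, was at 107 to 124 CPM in AgRP and 191 to 227 CPM in POMC neurons, or -0.84 ± 0.14 on the log2 scale (FDR = 0.00197). Dapk1, a kinase that phosphorylates GRIN2B, was at 164 to 188 CPM in AgRP and 119 to 127 CPM in POMC neurons, or 0.53 ± 0.13 on the log2 scale (FDR = 0.0436). Neither pair of groups overlapped. The call of Dapk1 was lost without any of the 5 fed libraries (0.48 to 0.59) and without some of the others, and that of Ptpn5 without the POMC fed library number 1 alone (-0.71). The median of the 48 was -0.17 and that of the 15 scaffold genes -0.27, beside -0.01 for all genes. Without AgRP number 4 and POMC number 2, which leaves 1 fed POMC library, these 2 medians were -0.12 and -0.17. That of the 12 auxiliary and trafficking genes was -0.05 with and 0.12 without those libraries.

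A pair of chromatin windows that the peak results below turn on is printed as the 300 bases at the centre of each peak, 5' to 3' on the plus strand of GRCm38. They are shown because the first differed both with cell identity and with fasting and the second had the largest difference between sorted nuclei. Capitals mark matches to the AP-1 motif TGANTCA, and the second window holds none.

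Grin2b intron, 42.9 kb downstream of the start, chr6:136130491-136130790: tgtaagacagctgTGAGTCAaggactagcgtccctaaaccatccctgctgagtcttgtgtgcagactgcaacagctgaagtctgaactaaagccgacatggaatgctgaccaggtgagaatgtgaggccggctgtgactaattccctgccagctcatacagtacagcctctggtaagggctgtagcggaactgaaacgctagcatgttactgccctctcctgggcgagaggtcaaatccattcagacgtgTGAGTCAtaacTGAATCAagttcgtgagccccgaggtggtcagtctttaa

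Tmem104 intron, 33.4 kb downstream of the Grin2c start, chr11:115233683-115233982: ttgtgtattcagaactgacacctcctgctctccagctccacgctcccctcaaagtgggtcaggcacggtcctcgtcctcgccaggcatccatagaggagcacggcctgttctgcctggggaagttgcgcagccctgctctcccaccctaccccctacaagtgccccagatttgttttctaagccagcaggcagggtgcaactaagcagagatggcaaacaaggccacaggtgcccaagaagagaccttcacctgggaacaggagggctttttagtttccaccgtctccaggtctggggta

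AP-1 is the factor family of Fos and Jun. The Grin2b window held 3 matches on either strand and had a GC content of 51.3%. At least 1 match was found in 29.2% of the 80530 state peaks of 300 bases or more and 3 or more in 0.765% of them, while 6 of 40 such peaks at the subunits (15%) held a match. No match to the cAMP response element (TGACGTCA, in 0.8% of peaks), STAT (TTCNNNGAA, 12.6%), GC box (GGGCGG, 16.8%), interferon response (GAAANNGAA, 9.8%), CTCF core (GGNGGCAG, 11.1%) or RE1 (TTCAGCACC, 0.4%) letters was found in that window. A match is a run of letters and does not show that a factor binds.

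Peaks lay at the annotated start of 4 subunits in AgRP nuclei. The Grin1 start (chr2:25317966-25319517) was at 36.4 and 53.3 CPM fed, 45.6 and 47.4 CPM fasted and 41.1 and 45.8 CPM after leptin. It overlapped between states. The Grin2a start (chr16:9993328-9995760) was at 41.8 to 44.7 CPM fed, 31.3 to 31.4 CPM fasted and 29.0 to 34.8 CPM after leptin, with fed libraries above all others but a log2 fold change of -0.46 ± 0.18 for fasting (FDR = 0.0603) and -0.44 ± 0.18 for leptin against fed (FDR = 0.0579). The Grin2b start (chr6:136173251-136173848) was low, at 9.80 to 10.4, 6.79 to 11.7 and 7.11 to 8.94 CPM in the same order. The Grin3a start (chr4:49844316-49846071) was at 12.4 to 16.7, 9.47 to 10.1 and 12.1 to 12.4 CPM, a log2 fold change of -0.54 ± 0.27 for fasting (FDR = 0.136). None of the 4 was called between states.

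No peak lay at the GENCODE gene starts of Grin2c, Grin2d and Grin3b. For Grin2d a peak 12.0 kb downstream of that start holds the RefSeq start, at 28.5 to 32.5 CPM over all 3 states, which overlapped, and at 16.4 to 22.7 CPM in AgRP(+) against 19.7 to 22.2 CPM in AgRP(-) nuclei. The nearest to Grin2c was 3.6 kb upstream, in an intron of Fdxr, at 2.27 to 4.53 CPM fed and 1.81 to 1.96 CPM fasted. The nearest to Grin2d was 5.2 kb downstream, at an exon of Kdelr1, whose record overlaps that of Grin2d, and the nearest to Grin3b was 10.5 kb upstream at an exon of Wdr18, at 55.7 to 67.9 CPM in fed and fasted nuclei. Many of the peaks within 50 kb therefore belong by position to other genes.

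Sorted AgRP(+) nuclei were compared with AgRP(-) nuclei of the same pools. Of 32 peaks near subunits 9 were called (28.1%), 3 higher and 6 lower in AgRP(+) nuclei, beside 39.6% of all 66560 peaks (23.9% higher and 15.6% lower). The clearest was the Grin3a start, at 17.3 and 20.6 CPM in AgRP(+) against 38.3 and 49.9 CPM in AgRP(-) nuclei, a log2 fold change of -1.22 ± 0.16 (FDR = 6.49e-13). It was called without each library in turn. The starts of Grin1 (-0.09, FDR = 0.678), Grin2a (-0.11, FDR = 0.565) and Grin2b (-0.39, FDR = 0.269) were not called. The window 33.4 kb downstream of the Grin2c start held 7 and 16 reads in AgRP(+) and 48 reads in each AgRP(-) library (0.622 to 1.33 against 5.69 to 5.91 CPM), a log2 fold change of -2.54 ± 0.49 (FDR = 1.94e-06) that was also kept without each library.

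The Grin2b intron peak 42.9 kb downstream was at 6.67 and 10.8 CPM in AgRP(+) against 3.33 and 4.26 CPM in AgRP(-) nuclei, a log2 fold change of 1.18 ± 0.32 (FDR = 0.00123). A Grin2d intron peak 30.9 kb downstream was at 2.49 to 2.92 against 0.474 to 0.985 CPM (1.88 ± 0.68, FDR = 0.0168), on 4 and 8 reads in AgRP(-) nuclei. A peak 45.0 kb downstream of the Grin2d start, at an exon of Grin2d and Gm45441, was at 12.7 to 12.8 against 7.82 to 9.48 CPM (0.56 ± 0.24, FDR = 0.0474). A Grin2a intron peak 41.9 kb downstream was lower, at 1.16 to 1.42 against 2.59 to 3.79 CPM (-1.30 ± 0.55, FDR = 0.0421). These 4 calls were lost when single libraries were left out, the Grin2b peak without AgRP(-) number 1 (1.01) or AgRP(+) number 1 (0.82), the Grin2d peak at 30.9 kb without any library other than AgRP(+) number 1 (1.44 to 2.48) and the last 2 without any of the 4. The other 3 called peaks, named after their values were seen, lay 0.9 kb inside Grin2b (-0.60 ± 0.21, FDR = 0.015) and 28.8 and 46.8 kb downstream of the Grin1 start, at exons of Lrrc26 (-0.62 ± 0.22, FDR = 0.0125) and of Anapc2 and Ssna1 (-0.50 ± 0.17, FDR = 0.00882). The Grin2b call was lost without either AgRP(-) library (-0.62 and -0.59) or AgRP(+) number 2 (-0.53), and both calls near Grin1 without AgRP(-) number 2 (-0.44 and -0.29) or AgRP(+) number 1 (-0.53 and -0.40). With the replicate number as a block, 8 of 32 peaks were called, beside 43.3% of all peaks. The Anapc2 and Ssna1 peak was then not past the fold limit (-0.50).

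**Figure D4:**
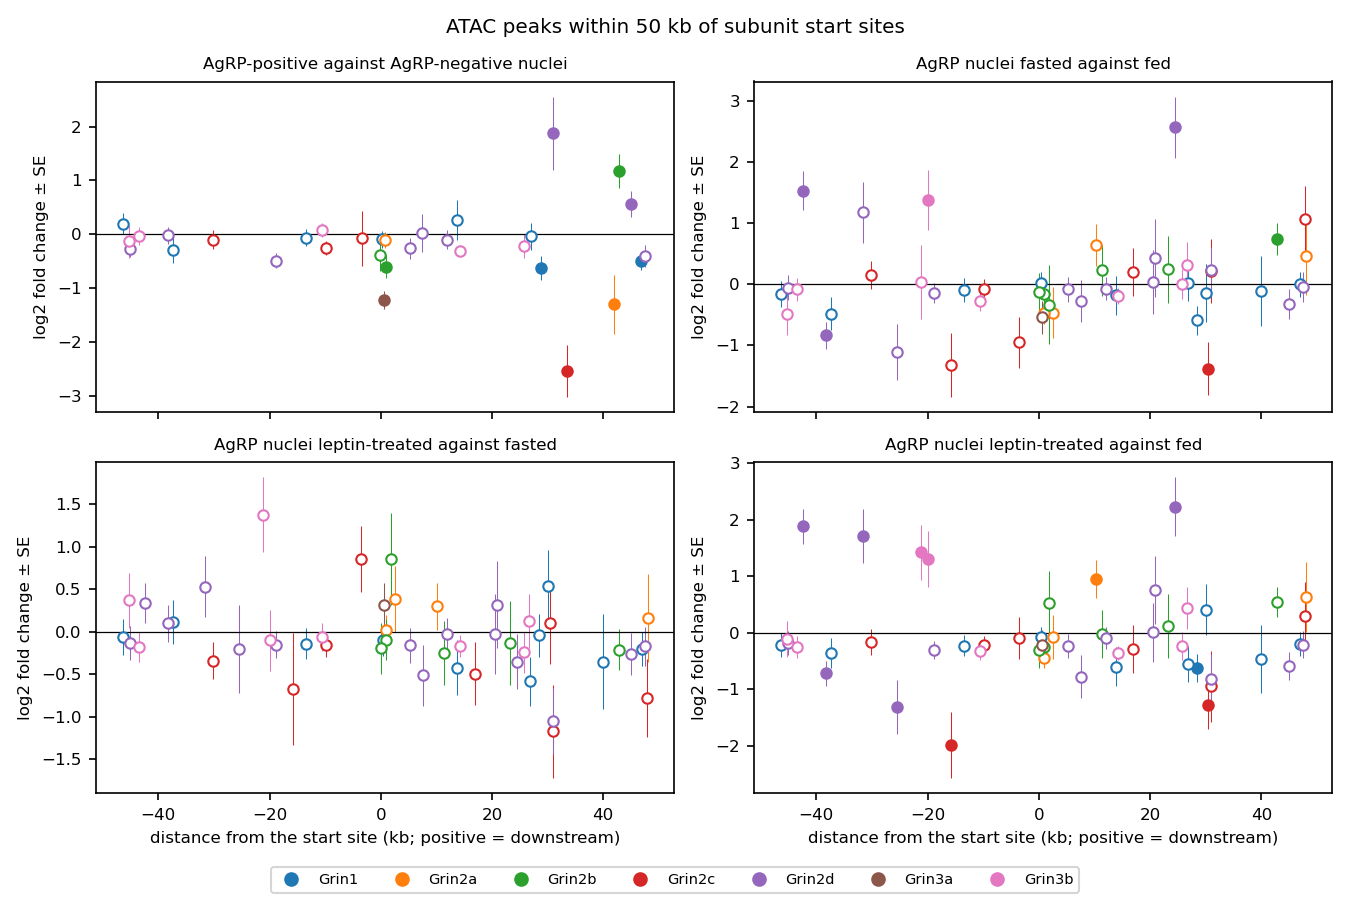
Log2 fold change ± SE (y axis) of ATAC peaks within 50 kb of subunit starts by distance from the start (x axis, kb, positive is downstream), coloured by gene, for sorted nuclei and the 3 comparisons of states. Filled symbols are called, 9 in the sorted comparison, 6 for fasted against fed, 0 for leptin against fasted and 11 for leptin against fed.

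Between fasted and fed AgRP nuclei, 6 of the 52 tested peaks near subunits were called (11.5%), 4 higher and 2 lower, beside 27.0% of all 102237 peaks (18.1% higher and 8.88% lower). The intron peak of Grin2d 24.5 kb downstream held 5 and 9 reads in fed and 59 and 64 reads in fasted nuclei, 0.629 and 0.658 against 3.81 and 4.04 CPM. This gave a log2 fold change of 2.58 ± 0.50 (FDR = 0.00088), kept without each library. A peak 42.4 kb upstream of Grin2d at an exon of Emp3 was at 3.90 to 5.12 CPM fed and 12.5 to 14.5 CPM fasted (1.54 ± 0.32, FDR = 0.00164), also kept without each library. The Grin2d transcript itself had its lower estimate of -0.34 in fasting, in the direction opposite to these 2 peaks, and was not called. The Emp3 peak lies nearest the start of Emp3. The other called peak near Grin2d, 38.3 kb upstream and given below, was lower in fasting, in the direction of the transcript.

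The Grin2b intron peak with the 3 AP-1 matches, singled out here after its values were seen, was at 7.81 and 12.4 CPM fed and 17.4 and 18 CPM fasted, a log2 fold change of 0.75 ± 0.26 (FDR = 0.0385). Its call was lost without any library other than fed number 2, with values of 0.50 to 0.79. A peak 19.9 kb upstream of Grin3b at an exon of Arid3a rose from 6 and 16 reads to 36 and 48 reads (1.39 ± 0.49, FDR = 0.0392). Lower in fasting were a Tmem104 intron peak 30.5 kb downstream of the Grin2c start, at 2.77 to 4.24 CPM fed and 1.03 to 1.77 CPM fasted (-1.38 ± 0.43, FDR = 0.0203), and a Tmem143 exon peak 38.3 kb upstream of Grin2d, at 34.2 to 48.0 and 18.9 to 28.0 CPM (-0.83 ± 0.22, FDR = 0.00794). The last 3 lost their call when single libraries were left out, the Grin3b peak without fasted number 2 (1.20), fed number 1 (1.17) or fed number 2 (1.80), the Grin2c peak without fasted number 1 (-1.04) or fed number 2 (-0.99) and the Grin2d peak without the same libraries (-0.56 and -0.55).

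Leptin treatment against fasting gave 0 of 52 peaks called by edgeR and by DESeq2, beside 3.08% of all peaks. At an unadjusted p under 0.05 there were 4 of the 52, beside 14198 of all 102237 peaks. The Grin2d intron peak at 24.5 kb was at 3.03 and 3.11 CPM after leptin, a log2 fold change of -0.35 ± 0.32 from fasting (FDR = 0.711), and the Grin2b intron peak was at 15.2 and 15.3 CPM. Against fed nuclei, 11 of 52 were called (21.2%), 6 higher and 5 lower, beside 36.8% of all peaks (23.3% higher and 13.4% lower). They included the Grin2d peaks at 24.5 kb (2.23 ± 0.52, FDR = 0.00248) and 42.4 kb upstream (1.88 ± 0.31, FDR = 0.000149) and, 31.6 kb upstream in an intron of Tmem143, a peak at 3.85 to 6.69 against 1.51 to 1.61 CPM (1.71 ± 0.47, FDR = 0.00736). Lower were the Grin2c peaks at 30.5 kb (-1.28 ± 0.42) and, at an exon of Fads6, 15.7 kb upstream (-1.99 ± 0.58) and a Tmem143 intron peak 25.5 kb upstream of Grin2d (-1.31 ± 0.48). Named after their values were seen, a Grin2a intron peak 10.2 kb downstream was at 8.03 to 8.32 CPM after leptin and 3.53 to 4.68 CPM fed (0.95 ± 0.33, FDR = 0.0287), and a peak 28.4 kb downstream of the Grin1 start, at exons of Grin1, Grin1os and Lrrc26, was lower by 0.63 ± 0.25. Of these 11 calls, those of the Grin2d peaks at 24.5 and 42.4 kb were kept without each library. Each of the other 9 was lost without at least 1. The fasted and leptin-treated nuclei share the fed libraries as their reference.

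**Figure D5:**
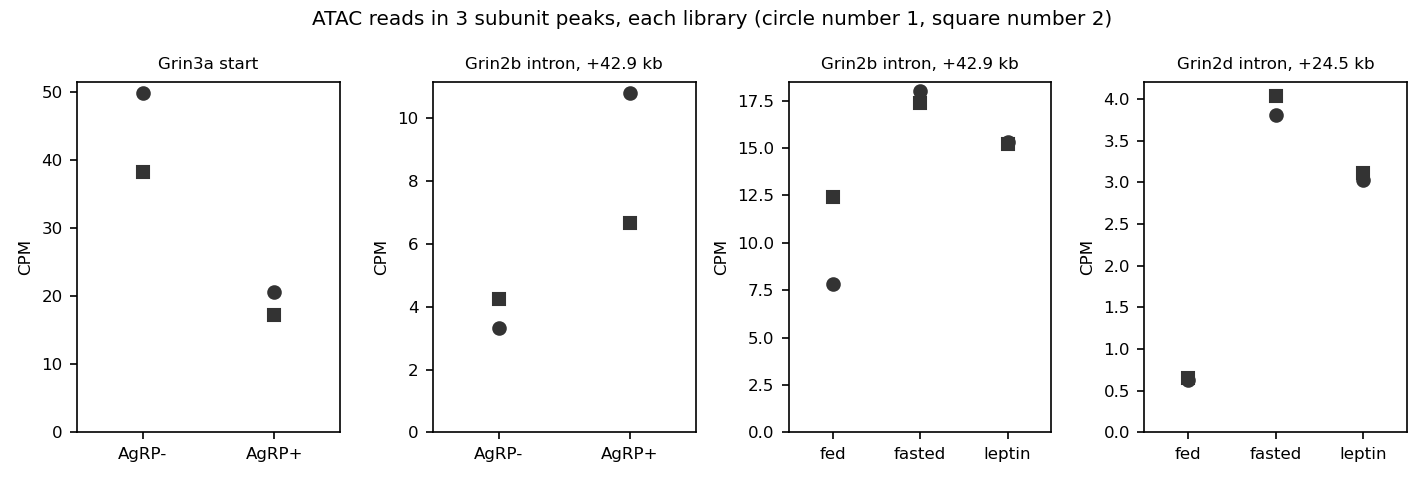
ATAC reads as CPM (y axis, from 0) in each library for the Grin3a start in sorted nuclei, the Grin2b intron peak at 42.9 kb in sorted nuclei and across states, and the Grin2d intron peak at 24.5 kb across states, circles for number 1 and squares for number 2. The Grin2d peak lies below 0.7 CPM in fed and above 3 CPM in fasted and leptin-treated nuclei.

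CTCF and IRF-3 sites of AgRP nuclei were read from CUT&RUN peak lists, each from 1 library with no replicate, and the SEACR list was taken to be that of IRF-3 because no other sample's description names one. CTCF, an insulator protein, had a site in 19 of 55 subunit peaks (34.5%), beside 17.9% of all state peaks, and IRF-3, a factor of interferon signalling, in 10 (18.2%) beside 8.4%. The starts of Grin1 and Grin3a overlapped a site of each, and the starts of Grin2a and Grin2b and the Grin2b intron peak overlapped a CTCF site only. The overlap was at least 1 base, so wide peaks at active starts are more likely to be counted.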

How the data were processed

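RNA was measured in 17 TRAP libraries and open chromatin in 10 ATAC libraries of mouse arcuate nucleus. The authors deposited raw counts per gene, which their methods describe as aligned with HISAT2 and assigned with featureCounts (Subread) on a GRCm38 annotation altered to reduce overlapping transcripts, and raw counts per ATAC peak (Bowtie2, MACS2, bedtools). Peaks were called, then merged, and coverage was counted per sample. Tool versions are not given in the sources used here. The authors also deposited a CTCF CUT&RUN peak list with fold enrichment (a ratio) and a SEACR list with total signal per peak, taken to be that of IRF-3 from a sample description, from which only positions were used. Authors' log2 CPM tables, cerebellum CTCF lists (4) and whole arcuate RNA (12 samples) were not used here. The number of columns belonging to other samples was 0.

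Counts were tested with edgeR 4.0.16 (TMM scaling, quasi-likelihood F test, Benjamini-Hochberg FDR) in R 4.3.3 with limma 3.58.1, and DESeq2 1.42.0 was the alternative. Summaries used Python 3.11.15, numpy 2.4.6 and pandas 2.3.3. Features with a mean above 1 CPM were kept, separately for AgRP libraries, POMC libraries, both lines, and each ATAC set, and each fit took all libraries of its set. A call needed an FDR under 0.05 and a change of over 0.5 on the log2 scale. The scripts were tested on simulated data. The groups were taken from GEO's labels, and replicates are the separately labelled samples of a group. No pair of replicates agreed within sampling noise (lowest chi-square per degree of freedom 2.94). CPM in the text are TMM-scaled. The methods call the AgRP TRAP and state ATAC replicates independent. For POMC and sorted samples the sources used here do not say so, and p-values there measure only the spread between samples, which may be technical. The replicate number was fitted as a block as an alternative.

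Same-numbered AgRP libraries deviated together (10 correlations of deviations from group means of 0.536 to 0.814), so the numbers were taken to pair them. The 30 correlations of unlike-numbered AgRP libraries ran from -0.642 to 0.642, so the ranges overlapped. Leptin-treated number 2 followed fed number 3 (0.642) more closely than fasted number 2 (0.536). The labels do not say that the numbers mark pairs. The 6 POMC correlations were 0.733 to 0.77, but only 2 numbers exist per state. Sorted AgRP(+) and AgRP(-) nuclei came from the same pools, so their numbers were also fitted as a block (correlation of deviations 0.0988).

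The subunits, the partner lists and the rules were chosen with earlier results of these data known. All 7 subunits were named. Partner genes were named where called, at most the 3 lowest FDR per direction and list. Peaks were named when at or nearest a start site, or among the 3 largest called changes per direction with no overlap of libraries. For each subunit, the 2 genes with the highest Pearson's r were named. Distances run from the GENCODE vM21 start to the peak centre. Sequences were read from the GRCm38 genome, and 4 of the 7 members have an entry in the RefSeq promoter table. Leaving out the AgRP libraries numbered 4 and the POMC libraries numbered 2 was chosen after seeing the data. The sequence of a further window is not reported here.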

Additional observations from a re-analysis of the deposited data

Results flagged for a closer look

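Among 16 sets of 4 values (each subunit and the Grin2a to Grin2b ratio, in fasted and in leptin-treated AgRP libraries), 5 held a value farther from the rest than Dixon's 95% critical value allows. For a single set chance gives this in about 1 of 20. The 16 sets share libraries and the ratio is built from subunits also in the list, so the count of 5 cannot be set against that rate. All 5 flagged values belong to the AgRP libraries numbered 4. In fasted AgRP neurons, Grin2b was at 1040 CPM against 161 to 207 CPM in the other 3 libraries, and Grin2a at 36.8 CPM against 19.2 to 21.4 CPM. In leptin-treated AgRP neurons, Grin2b was at 868 CPM against 188 to 261 CPM, and Grin2a at 45.7 CPM against 27.1 to 28.7 CPM. The log2 ratio of Grin2a to Grin2b in fasted number 4 was -4.29 against -2.74 to -2.54 in the others. The summed astrocyte, oligodendrocyte and GABAergic neuron markers were also higher in these libraries, as given above, though not every single marker was. Their part in these values was not tested.

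For Grin2d, the effect of fasting differed between the lines in the fit with the replicate block, with an AgRP minus POMC difference of -0.57 on the log2 scale (edgeR FDR = 0.0102). It was lower in fasting in 3 of 3 AgRP pairs and higher in 2 of 2 POMC pairs. With no block the difference was -0.55 and was not called (FDR = 0.422).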

How the results depend on the processing

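The AgRP subunit counts of 0 for leptin against fasting and leptin against fed stood under the settings tried, and that for fasting became 1 (Grin2b) without the libraries numbered 4 and with the replicate block. The block also gave 1 subunit (Grin2d) for the difference of the fasting effects between lines, and changed no other count of subunit calls. The block was not run for AgRP against POMC neurons, where it takes up the spread between libraries of a line. Leaving out 1 library at a time gave 0 to 1 subunits for AgRP against POMC neurons in the fasted state (0 without POMC number 2) and 0 to 1 after leptin (1, Grin2d, without AgRP number 4), and 0 to 0 elsewhere. For the Grin2a to Grin2b ratio, fasted minus fed was 0.08 without number 4, and -0.13 as the mean of the pairs under the block, and leaving out 1 library gave -0.33 to 0.39, with a reversed sign without fasted number 4 (0.39), fed number 1 (0.03) and fed number 3 (0.26). Leptin minus fasted ranged from -0.06 (without fasted number 4) to 0.67, and leptin minus fed from 0.01 to 0.65. The cause of these reversals was not tested.

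Counts given here without a share of all genes or peaks show only how the counts changed with the setting. They are not read as a result about the members. Partner calls for fasting were 3 of 49 tested without number 4. With the block as well they were 5, where 8.75% of all genes were called. Those for leptin against fed were 1 of 48 with the block (8.57% of all genes), 2 of 49 without number 4 and 4 with both (10.1% of all genes). Fed AgRP against POMC gave 1 with no low-count filter, 1 with fed libraries alone, 4 without the libraries that stood apart, and 0 to 3 with 1 library left out. Peak calls for fasting were 0 within 10 kb, 10 around any annotated transcript start and 3 at an FDR of 0.01. Those for leptin against fasting were 1 with the block and 2 around any start, those for leptin against fed 6 by DESeq2, 1 within 10 kb, 18 around any start and 3 at an FDR of 0.01, and those between sorted nuclei 5 with library size alone, 4 by DESeq2, 2 within 10 kb, 15 around any start and 4 at an FDR of 0.01. With 1 library left out these counts were 3 to 6, 0 to 0, 3 to 10 and 3 to 6. Counts within 10 kb and around any start are out of 12 and 67 peaks for the states. For sorted nuclei they are out of 9 and 43. The main fits called 27.0%, 3.08%, 36.8% and 39.6% of all peaks in the same order. Numbers of the state ATAC libraries were shared in name only (correlations -0.00228 to 0.165). Their block gave 9, 1 and 12 peaks, beside 32.1%, 5.75% and 41.6% of all peaks. The block of the sorted nuclei, which share pools, gave 8, beside 43.3% of all peaks.

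Over all genes tested in AgRP neurons, 521, 245 and 735 calls (fasting, leptin against fasting, leptin against fed) became 238, 146 and 329 with library size alone, 930, 390 and 1148 with the block and 1174, 449 and 1359 without number 4 and with the block. In POMC neurons 0 calls in each became 3, 10 and 7 by DESeq2 and 3, 8 and 44 with the block. For the differences between lines, 22 calls for fasting and 11 for leptin became 6 and 1 with library size alone, 166 and 39 by DESeq2, 836 and 102 with the block and 41 and 3 without the libraries that stood apart, and 2 for leptin with no low-count filter. After leptin, 1497 calls between the lines became 936 with library size alone. For peaks, 3146 calls for leptin against fasting became 1779 by DESeq2 and 5874 with the block, and library size alone moved the median of the sorted comparison by 0.163 on the log2 scale. Of 1514 recomputed values of single subunits, partners and peaks, 1349 kept their side of the threshold or moved by less than the spread, 97 lost a call, 4 gained one and 64 moved further. The sign turned in 107 of them, 0 of which were called under either setting, among them Grin2b for leptin against fasting in AgRP neurons (-0.09, and 1.02 without fasted number 4), Grin2b for AgRP against POMC neurons fed (-0.62, and 0.54 without POMC fed number 2) and Grin2c for fasting in POMC neurons (0.30, and -0.39 without fasted number 2). Leaving out number 2 leaves 1 POMC library per state, which gives values with no test between POMC states.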
